A study of Rattus norvegicus with 15 samples.

Results

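Genes of the cell division machinery were examined in the rat subfornical organ, a circumventricular organ whose neurons sense salt and angiotensin in the blood and take part in thirst. The set held 36 genes, chosen by symbol, from the cyclins and their kinases to the proteins of DNA replication and of the mitotic spindle. A member was read from the probe sets annotated to it alone, and its brightest probe set over all 15 arrays stood for the gene. This gave values for 35 of the 36, because the probe sets of Rrm2 are shared with Rrm2l1. The whole array measured 11510 tested genes, of which 28 were members, and 7 members lay below the filter on dim probe sets. Members had 46 probe sets in all and 31 were tested.

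The arrays carried RNA of water-deprived, food-deprived and control rats, with 5 arrays in each group and the organs of 5 animals pooled on each array. All were male Sprague Dawley rats aged 10 to 12 weeks. The labels give 48 h without food for the food-deprived animals and no length of water deprivation, and the controls are labelled untreated. The series' design text, read literally, has food withheld for 48 h in every condition, and the labels do not settle this. All 6 marker genes listed for the organ, among them the angiotensin receptor gene Agtr1a and the sodium channel gene Scn7a, were above the filter, as were all 6 measured markers of the adjoining choroid plexus. In dissected tissue, fewer cells of a type and less RNA per cell cannot be told apart.

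A cell enters division when D-type cyclins activate their partner kinases, which phosphorylate the retinoblastoma protein and free E2F factors to switch on the genes of DNA replication. Later in the cycle the DREAM complex gives way to activators that bind CHR elements and CCAAT boxes and switch on the mitotic genes. In the adult brain most neurons have left the cycle for good, and the dividing cells are chiefly glial precursors, microglia, cells of the vessel wall and stem cells near the ventricles. D-type cyclins are also made in cells that do not divide.

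Most promoters found for members hold some of these elements, and 4 are shown for members described below. They are those of Mcm3 and Mcm5, of the replication helicase, of Cdk1, the kinase of mitosis, and of Nusap1. Each window runs from 250 bases before to 50 bases after the gene's start in RefSeq (GRCr8), printed 5′ to 3′ on the gene's own strand. Capitals mark matches on either strand to a CHR (TTTGAA or TTCGAA), an E2F word (TTTGGCGC, TTTCGCGC or TTCCCGCC) or a CCAAT box (CCAAT, read as ATTGG on the other strand), and the long run of capitals in Mcm5 is an overlap of 2 E2F words.
Mcm3, chr9:30733697-30733996, - strand: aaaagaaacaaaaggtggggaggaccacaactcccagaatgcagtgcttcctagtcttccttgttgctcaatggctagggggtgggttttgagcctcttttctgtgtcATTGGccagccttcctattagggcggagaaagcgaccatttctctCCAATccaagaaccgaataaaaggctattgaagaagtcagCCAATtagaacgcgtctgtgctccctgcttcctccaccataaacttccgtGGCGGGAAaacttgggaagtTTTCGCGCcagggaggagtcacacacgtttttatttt
Mcm5, chr19:13488563-13488862, + strand: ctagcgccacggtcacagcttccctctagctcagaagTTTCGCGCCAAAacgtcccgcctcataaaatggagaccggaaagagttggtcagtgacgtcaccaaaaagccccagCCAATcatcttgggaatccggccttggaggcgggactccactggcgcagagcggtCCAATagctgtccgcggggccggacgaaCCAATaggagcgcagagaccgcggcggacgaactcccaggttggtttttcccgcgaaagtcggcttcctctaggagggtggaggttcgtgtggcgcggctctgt
Cdk1, chr20:19265043-19265342, + strand: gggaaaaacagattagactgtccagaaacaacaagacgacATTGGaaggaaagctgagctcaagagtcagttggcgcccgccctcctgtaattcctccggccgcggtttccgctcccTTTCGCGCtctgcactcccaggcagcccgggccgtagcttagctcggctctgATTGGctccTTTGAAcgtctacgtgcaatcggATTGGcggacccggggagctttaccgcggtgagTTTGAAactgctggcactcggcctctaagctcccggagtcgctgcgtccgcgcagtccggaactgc
Nusap1, chr3:127057045-127057344, + strand: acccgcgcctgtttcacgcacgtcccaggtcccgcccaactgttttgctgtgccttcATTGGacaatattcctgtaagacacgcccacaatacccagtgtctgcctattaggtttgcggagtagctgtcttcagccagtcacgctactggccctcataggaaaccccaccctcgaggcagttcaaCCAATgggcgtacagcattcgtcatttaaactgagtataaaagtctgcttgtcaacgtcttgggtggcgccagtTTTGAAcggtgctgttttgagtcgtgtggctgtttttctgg
Windows were found for 28 members, without Ccnd1. Each member entered with a single window, while the share over all windows was not reduced to a single window per gene. An E2F word was present in 8 of 28 windows (28.6%), including those of Mcm2, Mcm3, Mcm5, Mcm6 and Mcm7, against 2.68% of all 33469 windows. A CHR was present in 15 (53.6%, against 19.7% of all) and a CCAAT box in 21 (75.0%, against 37.5%). These are letter matches in a window and not measured binding.

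The arrays differ in the 5′/3′ signal ratio of control probe sets in a way that overlaps the groups, and the labels do not say why. The 5′/3′ signal ratio of the Actb and Gapdh control probe sets, which falls when RNA is broken or amplified products are short, was high on 7 arrays: those of food deprivation (5) and the first 2 of water deprivation. The 5 controls and water-deprived arrays 3 to 5 formed a low set of 8. Within it water-deprived array 3 stood apart, with a mean log2 ratio of -2.812 against -1.675 to -1.245 on the other low arrays. Food deprivation and control therefore lie in different sets and cannot be told apart from them within a set. Water deprivation can be set against control within the low set and against food deprivation within the high set, and these within-set differences are what a fit with a term for the array set gives.

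Of the 28 members tested, 0 passed in water deprivation against control, where 0.0046% of all probe sets passed (limma, Benjamini-Hochberg adjusted p, threshold 0.05). In food deprivation against control 8.53% of all probe sets passed and again 0 of 28 members. Between water and food deprivation 0.152% of all probe sets passed (0.133% higher and 0.0184% lower) and 0 members. At an unadjusted p under 0.05 there were 3, 3 and 4 members in these comparisons, or 10.7%, 10.7% and 14.3%, beside 6.5%, 26.3% and 15.8% of all probe sets. The median log2 difference of the members was -0.10 for water deprivation against control, 0.03 for food deprivation against control and -0.10 for water against food deprivation. Over all probe sets tested the medians were 0.0023, 0.05 and -0.04. With the array set as a term 0 members passed in any of the comparisons, where 0.0276% of all probe sets passed for water deprivation against control and 0 in the others, and 5, 4 and 5 members had an unadjusted p under 0.05. These are 17.9%, 14.3% and 17.9% of the members, beside 5.96%, 8.65% and 10% of all probe sets.

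**Figure D1:**
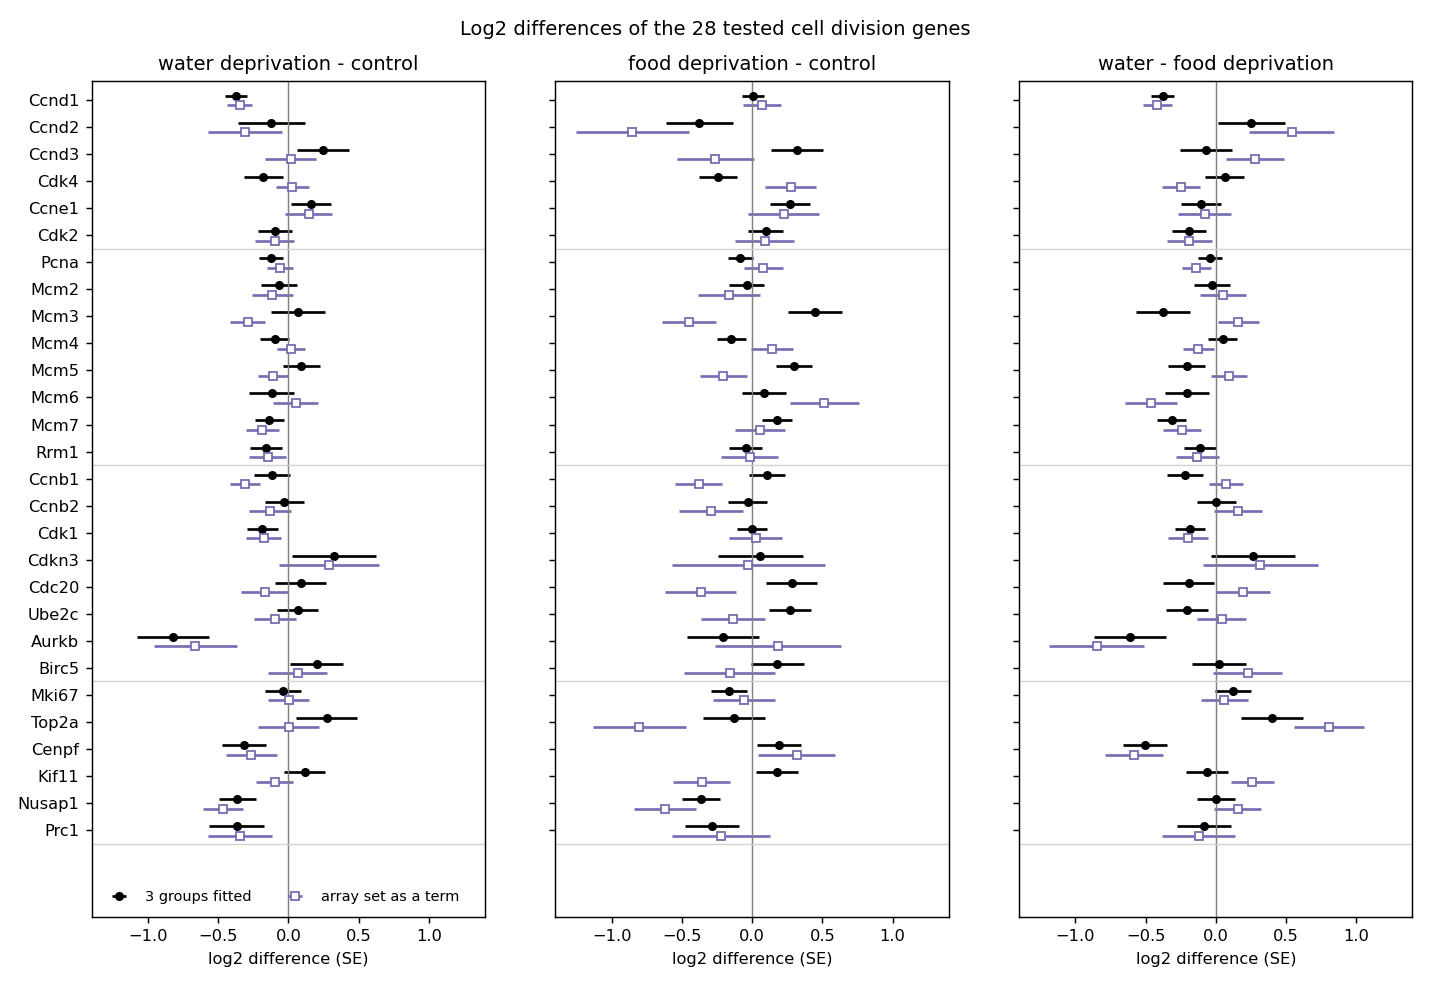
Log2 differences with SE of the 28 tested members, ordered by role, in the comparisons of water deprivation with control, food deprivation with control and water with food deprivation. Filled circles are the fit of the 3 groups and open squares the fit that adds a term for the array set. Ccnd1 has a short bar clear of 0 in both fits of the left and right panels. Many members change sides in the middle panel, among them Mcm3, Mcm5, Cdc20, Ccnb1, Kif11, Ccnd3, Ube2c and Cdk4.

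The member with the most distinct groups was Ccnd1, the gene of cyclin D1, which starts the G1 phase with Cdk4 or Cdk6. Its brightest probe set had signals of 169.1, 177.1, 175.2, 189.7 and 179.8 in water-deprived arrays 1 to 5. It had 251.8, 221.9, 239.3, 228.3 and 241.3 in food-deprived arrays and 250.9, 248.1, 250.5, 203.8 and 226.7 in controls. All 5 water-deprived arrays lay below every control and below every food-deprived array, while food-deprived and control arrays overlapped. The means were 178 ± 7.56, 237 ± 11.7 and 236 ± 20.6 (SD, n = 5 each) for water deprivation, food deprivation and control. The signal was 1.29-fold lower in water deprivation than in control (log2 difference -0.37, SE 0.081, limma adjusted p = 0.386). It was 1.3-fold lower than in food deprivation (log2 -0.38, SE 0.081, adjusted p = 0.0597). Neither passed the adjusted test, and food deprivation differed from control by 0.01 (SE 0.081).

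Ccnd1 has 2 further probe sets, and in both all 5 water-deprived arrays again lay below every control. The intermediate one read 78.2, 87.4, 81.6, 65.4 and 118.2 in water-deprived arrays, 98.8, 124.5, 60.0, 126.8 and 87.2 in food-deprived arrays and 244.4, 137.1, 147.6, 190.3 and 132.2 in controls. Here both deprived groups lay below the controls without overlap. Water deprivation was 1.81-fold lower than control (log2 -0.85, SE 0.19, adjusted p = 0.386), and food deprivation was 1.62-fold lower and passed the adjusted test (log2 -0.69, SE 0.19, limma adjusted p = 0.0396). With the array set as a term the food value was -0.64 and did not pass (adjusted p = 0.619). With 1 array of these groups left out in turn, 4 of the 10 fits kept the food call (adjusted p from 0.0414 to 0.101).

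The dimmest Ccnd1 probe set put the groups in the same order as the brightest one. Its signals were 59.1, 56.5, 58.0, 37.3 and 54.4 in water-deprived arrays, 74.8, 61.8, 111.2, 86.2 and 80.5 in food-deprived arrays and 86.4, 64.2, 67.4, 67.8 and 70.3 in controls. The water-deprived arrays lay below all others. The log2 difference from control was -0.34 (SE 0.13, adjusted p = 0.719) and that from food deprivation -0.51 (SE 0.13, adjusted p = 0.102). The probe sets thus disagree only about food deprivation, which was 0.17 (SE 0.13) from control here and -0.69 by the intermediate one.

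Non-overlap of water-deprived and control arrays was uncommon on the array, with 0.368% of probe sets lower without overlap. Among members by their brightest probe set it held for 1 of 28, Ccnd1, and 0 were higher without overlap, beside 0.373% of all probe sets. Against food deprivation 1 of 28 (Ccnd1) was lower and 0 were higher without overlap, beside 2.05% and 1.47% of all probe sets. Of 736 genes with at least 3 tested probe sets, 1 gene, Ccnd1, was lower without overlap in all of them (0.136%), and 0 were higher. This count was made after the values of Ccnd1 had been seen.

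Within the array sets the Ccnd1 differences were below 0 in all 3 probe sets, some of them smaller than in the fit of the groups alone. In the low set, water-deprived arrays 3 to 5 against the controls, the log2 differences of the brightest, intermediate and dimmest probe sets were -0.35 (SE 0.089), -0.83 (SE 0.23) and -0.41 (SE 0.15). In the high set, water-deprived arrays 1 and 2 against food deprivation, they were -0.42 (SE 0.1), -0.19 (SE 0.26) and -0.40 (SE 0.17). The difference between the sets themselves was -0.06 (SE 0.11), -0.05 (SE 0.29) and 0.18 (SE 0.19). None of these passed the adjusted test. With 1 array left out of the 3-group fit, the difference of the brightest probe set from control ranged from -0.42 to -0.35.

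Markers of several cell types differed between the groups beside Ccnd1, and in water deprivation against control 0 passed without the array-set term. All 11 tested microglia markers lay below control (median log2 -0.38), as they did with the term (median -0.24). Their summed signal was 921 to 1564 in water-deprived arrays and 1134 to 1952 in controls. Of 4 tested markers of oligodendrocyte precursors 3 lay below control and with the term 2, with a summed signal of 554 to 1029 in water-deprived arrays and 651 to 1699 in controls. Markers of neural stem cells and neuroblasts lay below in 4 of 6 and with the term in 1 of 6, with 1424 to 2767 in water-deprived arrays and 2111 to 2948 in controls.

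The lists of other cell types lay on either side of control. Markers of mature oligodendrocytes lay below control in 6 of 7 (median -0.20, and 7 of 7 with the term), those of astrocytes in 5 of 7 (median -0.15) and those of neurons in 6 of 11 (median -0.0015). Endothelial markers lay above control in 5 of 6 (median 0.05), mural ones in 2 of 4 and ependymal ones in 3 of 3. Choroid plexus markers lay above in 6 of 6 (median 0.53) and with the term in 1 of 6. The markers of the subfornical organ itself lay above in 4 of 6 (median 0.63) and with the term in 5 of 6 (median 0.95), where the calcium-sensing receptor gene Casr passed (log2 1.35, SE 0.2, limma adjusted p = 0.0227).

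Against food deprivation 10 of 11 microglia markers (median -0.26), 7 of 7 of mature oligodendrocytes (median -0.76), 6 of 7 of astrocytes (median -0.30) and 9 of 11 of neurons (median -0.24) were lower in water deprivation. Choroid plexus markers lay below in 4 of 6, and with the term in 0 of 6. Markers of oligodendrocyte precursors lay below in 3 of 4 (median -0.38) and endothelial ones in 4 of 6. Mural markers lay below in 2 of 4 and those of neural stem cells and neuroblasts in 3 of 6. Other lists went the other way, with ependymal markers above in 3 of 3 and those of the subfornical organ in 4 of 6 (median 0.68). With the term these were 2 of 3 and 3 of 6 (median 0.03). Among the subfornical organ markers Cartpt passed (log2 1.12, SE 0.20, limma adjusted p = 0.0459), but not with the array set as a term (0.72, adjusted p = 0.368). The markers Itgam of microglia, Olig2 of precursors and Gad2 of neurons were below the filter. The part of these cells in the Ccnd1 difference was not tested.

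**Figure D2:**
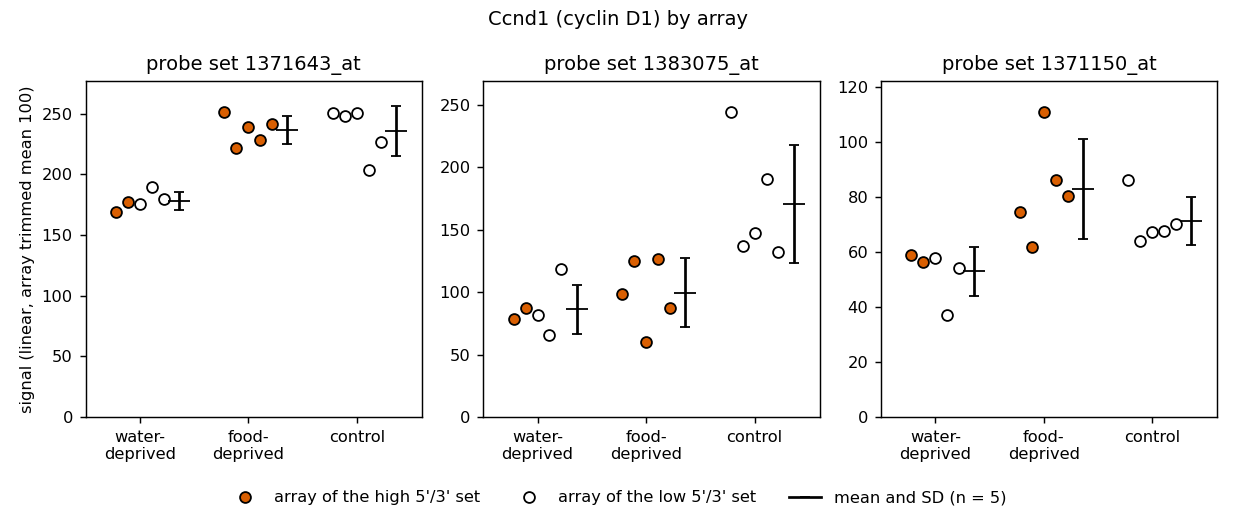
Signal of the 3 Ccnd1 probe sets, brightest at left and dimmest at right, on each array (linear scale, axes from 0) in water-deprived, food-deprived and control groups, with mean and SD (n = 5). Orange points are arrays of the high 5′/3′ set and white points arrays of the low set. The water-deprived points lie below all controls in each panel, whichever set they belong to.

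The other G1 genes showed no such separation. Ccnd2, whose protein is the D-type cyclin of many neural progenitors, ranged from 317.7 to 760.2 in water-deprived arrays, 377.0 to 602.5 in food-deprived arrays and 342.1 to 842.6 in controls. Ccnd3 ranged from 121.6 to 258.7, 148.7 to 226.7 and 109.2 to 188.6 in the same order. Cdk4, the kinase partner of the D cyclins, averaged 257 ± 57.3, 241 ± 27.2 and 288 ± 29.5 (SD, n = 5 each). Ccne1, the cyclin that takes over from the D cyclins at the start of replication, lay between 18.3 and 45.0 on all arrays. Its partner Cdk2 lay between 21.7 and 42.1. Cdk6, the other partner of the D cyclins, had 1.82 to 16.9 and was below the filter. Against control the 6 tested genes of this group had median log2 differences of -0.11 in water and 0.05 in food deprivation.

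Among replication genes, Pcna, the sliding clamp that holds the polymerase on DNA, had steady signals. They were 515.6, 455.8, 545.7, 536.0 and 554.3 in water-deprived arrays, 474.9, 509.3, 557.8, 540.5 and 601.7 in food-deprived arrays and 564.3, 533.1, 522.2, 605.3 and 621.6 in controls. The groups overlapped, and the log2 differences from control were -0.12 (SE 0.087) in water and -0.08 (SE 0.087) in food deprivation, which the limma test did not call (adjusted p = 0.799 and 0.586).

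The Mcm2 to Mcm7 proteins form the helicase that opens DNA at replication origins. Mcm3 had signals of 41.9 and 39.9 in water-deprived arrays 1 and 2 but 11.2, 20.5 and 12.8 in arrays 3 to 5. Food-deprived arrays had 30.2, 44.9, 33.2, 35.8 and 31.8 and controls 17.5, 25.2, 20.2, 24.1 and 20.3. The food-deprived arrays all lay above the controls, and the water-deprived arrays split by array set. Among members 1 of 28 was higher without overlap in food deprivation, beside 9.84% of all probe sets, and 0 were lower, beside 5.61%. The log2 difference between food deprivation and control was 0.45 (SE 0.19, limma adjusted p = 0.151), and with the array set as a term it was -0.45 (SE 0.19, adjusted p = 0.555).

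Mcm5 had the same split. Its signals were 42.5, 39.5, 24.5, 21.2 and 27.2 in water-deprived arrays, 37.5, 44.5, 35.8, 30.6 and 39.4 in food-deprived arrays and 23.7, 31.2, 25.2, 31.1 and 26.2 in controls. In food deprivation 4 of 5 arrays lay above all controls (log2 0.30, SE 0.13, adjusted p = 0.16), and the value with the array set as a term was -0.21 (SE 0.17).

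Among the replication genes that are members, Mcm7 had the smallest p between the deprived groups. It had 106.7, 119.5, 101.3, 104.4 and 102.0 in water-deprived arrays and 145.0, 133.3, 154.0, 115.2 and 137.1 in food-deprived arrays, and 4 of 5 water-deprived arrays lay below all of the food-deprived ones. The log2 difference was -0.31 (SE 0.1, limma adjusted p = 0.166). Controls, at 92.9 to 137.9, overlapped both groups. Mcm2, Mcm4 and Mcm6 differed from control by -0.15 to 0.09 on the log2 scale in either deprivation. Rrm1, the large subunit of the reductase that makes deoxynucleotides, was at -0.16 and -0.05 against control. Tyms, which makes thymidylate, had 1.91 to 20.6 and was below the filter.

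Many regulators of mitosis were dim in this tissue. Of the 13 members in this group, 5 were below the filter: Ccna2 (signals of 2.93 to 11.3), the mitotic kinase genes Plk1 (2.99 to 27.0), Aurka (8.4 to 24.7) and Bub1 (1.9 to 18.6), and the spindle checkpoint gene Bub1b (1.15 to 3.71). Cdk1, the kinase that drives entry into mitosis, was just above it. Its signals were 15.1, 18.9, 21.1, 13.2 and 18.9 in water-deprived arrays, 17.8, 28.7, 25.2, 17.9 and 20.8 in food-deprived arrays and 24.2, 25.0, 21.5, 19.9 and 19.2 in controls. In water deprivation 4 of 5 arrays lay below every control, with a log2 difference of -0.19 (SE 0.11, limma adjusted p = 0.76).

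Aurkb, the kinase of the chromosomal passenger complex, had the largest log2 difference in water deprivation among members by their brightest probe set. Its signals were 46.4, 79.1, 90.8, 54.8 and 121.0 in water-deprived arrays, 125.4, 119.2, 114.2, 82.8 and 192.6 in food-deprived arrays and 100.6, 196.2, 112.9, 114.2 and 238.8 in controls. Array 5 of water deprivation lay within the controls and the other 4 below them. The signal was 1.77-fold lower than in control (log2 -0.82, SE 0.26, limma adjusted p = 0.703) and 1.53-fold lower than in food deprivation (log2 -0.61, SE 0.26, adjusted p = 0.265). Within the array sets these differences were -0.66 (SE 0.29) and -0.85 (SE 0.34). Birc5, another member of the same complex, was at 0.20 (SE 0.19) against control in water deprivation and 0.02 against food deprivation.

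The remaining regulators gave small differences. Against control, Ccnb1 and Ccnb2, the cyclins of Cdk1, were at -0.11 and -0.03 in water and 0.11 and -0.03 in food deprivation. Cdc20, an activator of the anaphase-promoting complex, was at 0.09 and 0.28, and Ube2c, its ubiquitin-conjugating enzyme, at 0.07 and 0.27. Cdkn3, a phosphatase that acts on cyclin-dependent kinases, was at 0.32 and 0.06 with an SE of 0.3. The smallest limma adjusted p among these genes was 0.263, that of Ube2c in food deprivation.

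The chromosome and spindle proteins include the marker most used for cycling cells, Mki67, the gene of the Ki-67 protein. Its signals were 46.1, 36.0, 52.2, 39.8 and 44.2 in water-deprived arrays, 32.1, 36.7, 34.0, 44.2 and 46.7 in food-deprived arrays and 53.1, 39.5, 35.5, 60.9 and 40.0 in controls. The groups overlapped, and the log2 differences from control were -0.04 (SE 0.13) in water and -0.17 (SE 0.13) in food deprivation. Top2a, the topoisomerase that untangles replicated DNA, had 43.5, 49.9, 14.9, 23.8 and 32.9 in water-deprived arrays, 18.5, 24.2, 23.2, 6.34 and 32.4 in food-deprived arrays and 18.3, 20.2, 25.0, 19.9 and 34.2 in controls. Water-deprived arrays 1 and 2 were the highest of the 15. Its log2 difference between water deprivation and control was 0.27 (SE 0.22), or 0.0022 within the low set, and between water and food deprivation 0.40 (SE 0.22), or 0.81 (SE 0.25, limma adjusted p = 0.368) within the high set. The other Top2a probe set, below the filter and not tested, averaged 20.8 ± 7.2 in water-deprived arrays, 16.6 ± 6.91 in food-deprived arrays and 18 ± 8.16 in controls (SD, n = 5 each). There water-deprived arrays 1 and 2 had 24.9 and 19.3, and control 5 was the highest at 31.6.

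Cenpf, a kinetochore protein, was lower in water than in food deprivation in 4 of 5 arrays. The signals were 5.93, 29.2, 16.7, 15.7 and 23.2 in water-deprived arrays and 33.2, 32.3, 36.0, 27.2 and 27.5 in food-deprived arrays (log2 -0.51, SE 0.16, limma adjusted p = 0.142). The controls, at 21.1 to 31.1, overlapped both groups. Water-deprived array 1 was far below the others, and without it the difference was -0.36.

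Nusap1, which binds spindle microtubules, was lower than control in both deprived groups, which share these controls. Its signals were 19.8, 29.5, 17.5, 17.7 and 18.1 in water-deprived arrays, 16.4, 24.1, 22.0, 25.3 and 14.7 in food-deprived arrays and 32.3, 19.9, 37.8, 32.7 and 32.5 in controls. Control 2 lay among the deprived arrays and the other 4 controls above all of them. The log2 differences were -0.36 (SE 0.13, limma adjusted p = 0.719) in water and -0.36 (SE 0.13, adjusted p = 0.098) in food deprivation. Without control 2 the food value was -0.46 and passed (adjusted p = 0.0443), and it also passed after quantile normalization (-0.50, adjusted p = 0.0214) and after median centring (-0.46, adjusted p = 0.0353). The food value was -0.62 (SE 0.22) with the array set as a term and did not pass (adjusted p = 0.5). The other Nusap1 probe set, below the filter and not tested, averaged 13.8 ± 4.61 in water-deprived arrays, 21.2 ± 5.94 in food-deprived arrays and 18.7 ± 7.46 in controls (SD, n = 5 each), so that in food deprivation it ran the other way. Kif11, the motor that pushes spindle poles apart, and Prc1, which bundles midzone microtubules, were at 0.11 and -0.37 in water and 0.17 and -0.28 in food deprivation against control, with SEs of 0.15 and 0.19.

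**Figure D3:**
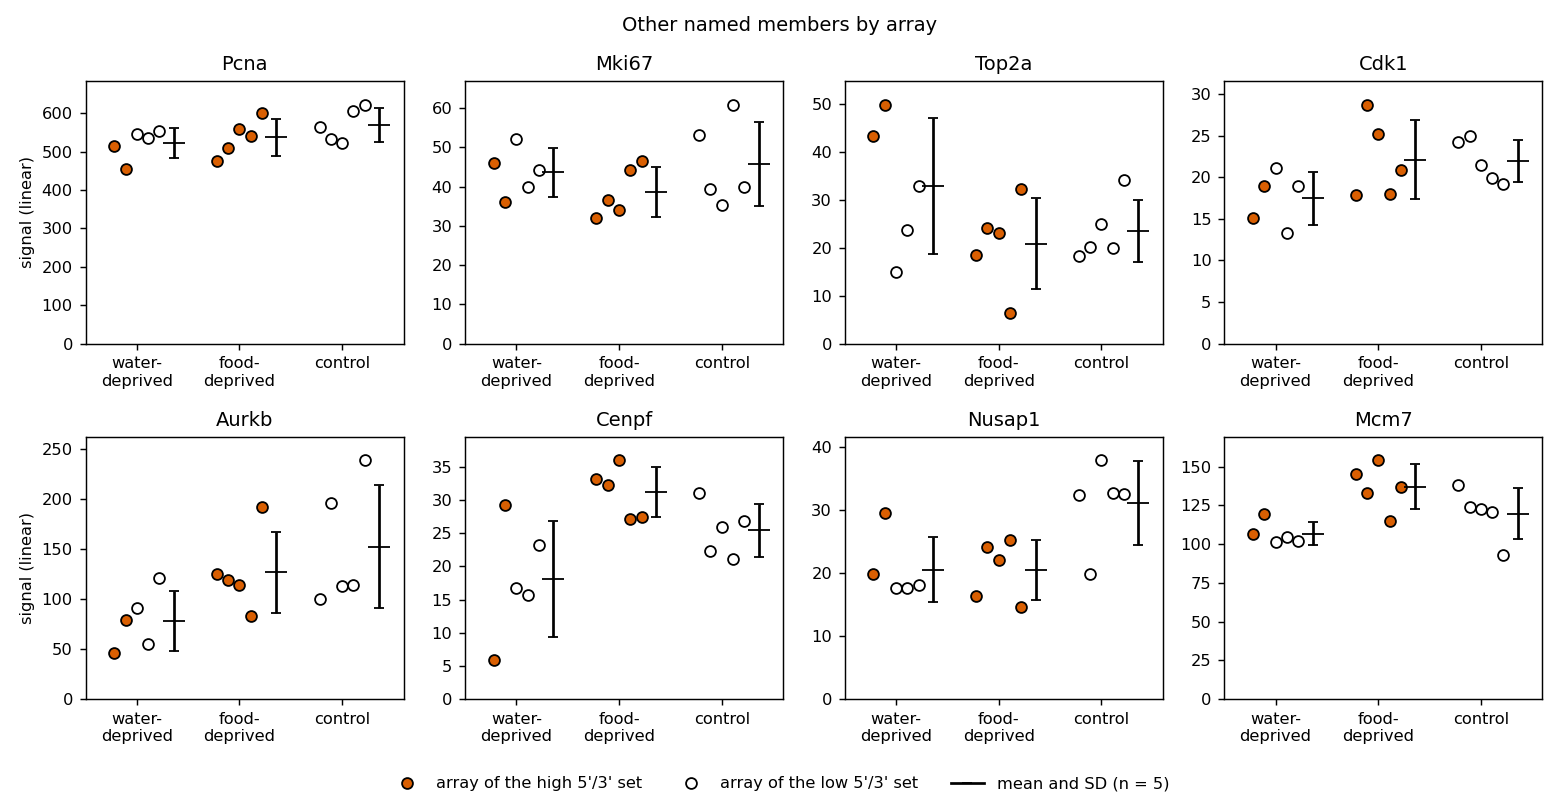
Signal by array (linear scale, axes from 0) of Pcna, Mki67, Top2a, Cdk1, Aurkb, Cenpf, Nusap1 and Mcm7 in water-deprived, food-deprived and control groups, with mean and SD (n = 5). Orange points are arrays of the high 5′/3′ set and white points arrays of the low set. The groups overlap in every panel, and for Nusap1 4 of the 5 controls lie above all deprived arrays.

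More members differed between the array sets than between the groups, and the same held over all probe sets. With a term for the array set, 6 of 28 members (21.4%) differed between the high and the low set, beside 15.9% of all probe sets. This set difference rests on water-deprived arrays 1 and 2 against 3 to 5, which share the treatment. In the high set Mcm3 was 1.86-fold higher (log2 0.90, SE 0.16, limma adjusted p = 0.0025), Cdc20 1.56-fold (0.65, SE 0.21, adjusted p = 0.0472), Kif11 1.45-fold (0.53, SE 0.17, adjusted p = 0.0418), Mcm5 1.42-fold (0.50, SE 0.14, adjusted p = 0.0232) and Ccnb1 1.4-fold (0.49, SE 0.14, adjusted p = 0.0252). Cdk4 was 1.43-fold lower (-0.51, SE 0.15, adjusted p = 0.0287). These 6 genes were named after their values were seen. For all of them but Cdk4 the difference between food deprivation and control was above 0 without the term and below 0 with it, and for Cdk4 it turned from -0.24 to 0.27. Food deprivation and control lie in different sets, so the value with the term is the value without it less the set difference. As these genes were picked for their set difference, the turn follows in large part from the picking and is not a further result.

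**Figure D4:**
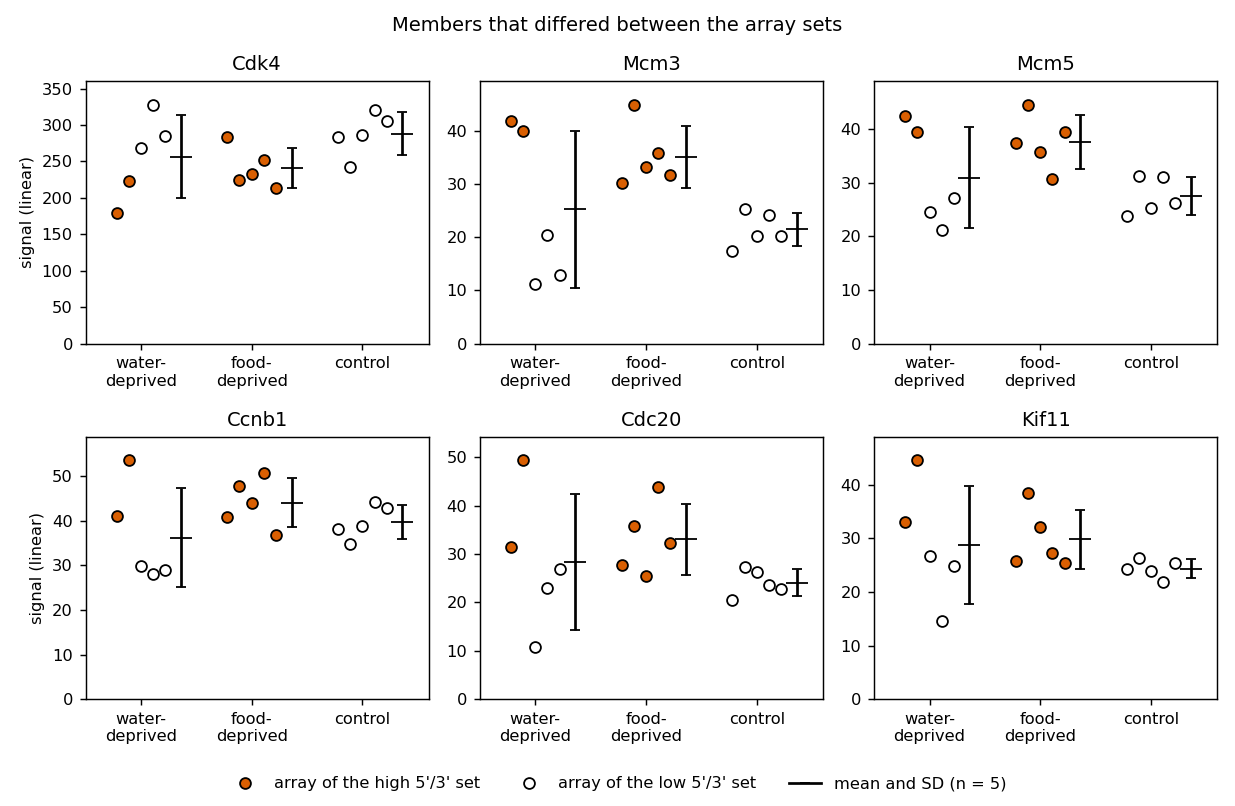
Signal by array (linear scale, axes from 0) of the 6 members that differed between the array sets, in water-deprived, food-deprived and control groups, with mean and SD (n = 5). Orange points are arrays of the high 5′/3′ set and white points arrays of the low set. For Mcm3 and Mcm5 the orange water-deprived points lie among the food-deprived ones and the white ones among or below the controls.

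Other genes of the cell cycle, taken from 4 lists, gave few calls. Of 19 tested brakes and pocket proteins, which hold the cycle back, 0 passed in any comparison, and their median was 0.02 in water and 0.06 in food deprivation against control. The smallest unadjusted p in water deprivation was that of the p53 target Ccng1 (log2 0.47, SE 0.18, limma adjusted p = 0.719), followed by Rbl1, a relative of the retinoblastoma protein (-0.24, adjusted p = 0.76). In food deprivation they were those of Rb1, the gene of the retinoblastoma protein (0.37, SE 0.14, adjusted p = 0.0934), and Fzr1, an activator of the anaphase-promoting complex (-0.44, adjusted p = 0.124). Rb1 was at 0.17 and Fzr1 turned to 0.25 with the array set as a term.

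Of 17 tested genes of E2F and upstream control, 1 was called higher in food deprivation against control and 0 lower. Over all probe sets these shares were 4.77% and 3.76%. The gene called was Mybl2, the B-Myb factor of mitotic gene expression (1.75-fold, log2 0.81, SE 0.21, limma adjusted p = 0.0308), with all 5 arrays above the controls. With the array set as a term it was at 0.13 (adjusted p = 0.921).

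Of 32 tested further replication genes, 2 were called higher in food deprivation against control and 0 lower. Over all probe sets these shares were 4.77% and 3.76%. Prim1, a subunit of the primase, was 1.28-fold higher (log2 0.36, SE 0.089, limma adjusted p = 0.0235) and Tipin, which protects stalled forks, 1.54-fold (0.62, SE 0.15, adjusted p = 0.0245), each with 5 of 5 arrays above the controls. With the term they were at 0.25 and 0.04 and did not pass. The median of this list was 0.11 in food deprivation and 0.0029 in water deprivation, and with the term -0.07 and -0.08. Of 20 tested further mitosis genes 0 passed, with medians of 0.05 in food and -0.06 in water deprivation against control. In water deprivation against control and against food deprivation 0 genes of the 4 lists passed.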

How the data were processed

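Subfornical organ RNA from 15 pools of 5 rats was hybridised to Affymetrix rat arrays. The authors deposited 1 signal intensity for each probe set. The submitters' processing notes name GCOS 1.2, without its role or a scaling target. The trimmed mean (2% at each end) was 100 on all 15 arrays, so these intensities were taken as scaled and used as log2(signal + 16). Depth does not apply to arrays, whose number limits the precision. Probe sets with a mean above the 30th percentile (log2 5.11) were tested, 21729 of 31099, without 57 controls. Of the probe sets, 20826 have 1 gene symbol, 436 several and 9780 none.

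The 3 groups were fitted together with limma 3.58.1 in R 4.3.3 (12 residual degrees of freedom, variance trend, two-sided, Benjamini-Hochberg over all probe sets). The fit was tested on simulated data. The array set (mean log2 5′/3′ ratio above or below -1) was added as a term, leaving 11. The 3 members with the smallest p in each comparison, any that passed, and Ccnd1, Cdk1, Mki67, Top2a and Pcna were described by array. Members, lists and alternatives were chosen with earlier results of these data known. Alternatives covered scaling, offset, filter, variance trend, arrays fitted, replicate block, array set, arrays left out and averaging of probe sets. Fold changes are on the log2(signal + 16) scale and understate those of dim genes. Figures were drawn with matplotlib 3.10.9 in Python 3.11.15.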

Additional observations from a re-analysis of the deposited data

Results flagged for a closer look

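In 5 of 84 groups of 5 arrays, 1 array lay far from the other 4 by Dixon's criterion, and chance flags about 5% of groups. Ccnd2 was at 318 in water-deprived array 4, against 609 to 760 in the others. Water-deprived array 2 was high for Ccnb2 (36.2, others 17.1 to 19.8) and for Nusap1 (29.5, others 17.5 to 19.8). Cdkn3 was at 36.1 in food-deprived array 4, against 64.6 to 75.9. Nusap1 was at 19.9 in control 2, against 32.3 to 37.8.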

How the results depend on the processing

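Ccnd1 by its brightest probe set lay below control in water deprivation under every alternative run, with a smallest adjusted p of 0.193. Members called between water deprivation and control numbered 0 in all alternatives. In food deprivation against control 1 was called after quantile normalization (Nusap1), median centring (Nusap1), in a fit of only the 10 arrays compared (Mcm3), and 0 to 1 with an array left out. Between water and food deprivation 1 was called after quantile normalization (Ccnd1, -0.39, adjusted p = 0.043) and with the filter at the 50th percentile (Ccnd1), and 0 to 2 with an array left out: Ccnd1 without water-deprived array 1 (-0.36, adjusted p = 0.0358), and Ccnd1 (-0.38) and Cenpf (-0.62, adjusted p = 0.045) without array 2.

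Over all probe sets, calls between water deprivation and control (1) became 3 with no filter, 0 with the filter at the 50th percentile, with only the 10 arrays or with the replicate block, 6 with the array set, and 0 to 2 with an array left out. Those between food deprivation and control (1854) became 1119 with the stricter filter, 4183 with only the 10 arrays, 0 with the array set, 807 to 1521 without an array of these groups and 2854 without water-deprived array 3. Those between water and food deprivation (33) became 107 after quantile normalization, 101 after median centring, 71 with the stricter filter, 0 with only the 10 arrays, 20 with the replicate block, 0 with the array set 0 to 771 without an array of these groups (771 without water-deprived array 1 and 535 without array 2) and 2 to 51 without a control. Median centring shifts the median of food deprivation against control by -0.10.

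Same-numbered arrays did not regularly deviate together (correlations of -0.36 to 0.37, 3 of 15 over 0.1), so no pairing by number was seen. These correlations cannot exclude one, because the water-deprived arrays also deviate by array set. The replicate block ended the food call of the intermediate Ccnd1 probe set (-0.69, adjusted p = 0.0674), the only call among the members described by array. Leaving out food-deprived array 1, 3 or 5 or control 1, 3 or 4 did the same (-0.78 to -0.55 and adjusted p of 0.0414 to 0.101 over all 10 arrays left out in turn). Calls of genes in the other lists and of markers were not followed in these fits. Some differences turned sign, none of them called. Those given here are of the members described by array, and other members turned too. With the array set as a term, against control in water deprivation, these were Mki67 (0.0029), Mcm3 (-0.29) and Mcm5 (-0.11). In food deprivation they were Cdk1 (0.024), Pcna (0.081), Aurkb (0.19), Mcm3 (-0.45), Mcm5 (-0.21) and the dimmest Ccnd1 probe set (-0.0097), and between water and food deprivation Mcm3 (0.16) and Mcm5 (0.095). Median centring turned Ccnd1 in food deprivation (-0.095) and Pcna between water and food deprivation (0.053), an offset of 64 turned Cdk1 in food deprivation (0.00079), and averaging the probe sets turned Ccnd1 in food deprivation (-0.17). With an array left out, food deprivation against control ranged from -0.043 to 0.027 for Ccnd1, -0.061 to 0.039 for Cdk1 and -0.24 to 0.041 for Top2a, water deprivation against control from -0.10 to 0.043 for Mki67 and -0.072 to 0.20 for Mcm3, and water against food deprivation from -0.081 to 0.0066 for Pcna and -0.081 to 0.047 for Nusap1. The cause was not tested. With the array set and 1 low array left out, added after seeing the data, Ccnd1 ranged from -0.40 to -0.32 in water deprivation against control. Signals of the dim members lie near the filter, which limits what the arrays resolve for them.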
